A study of Drosophila melanogaster with 2 samples.

Results

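Tramtrack (ttk) binding was mapped by ChIP-seq in Drosophila melanogaster embryos, and the peaks described here are those that the authors' larger list holds and their conservative list lacks. They numbered 1165 of the 4691 larger-list peaks on the chromosome arms. A peak was a member when it overlapped no conservative peak by 1 bp or more. The other 3526 peaks of the larger list overlapped a conservative peak and are called shared peaks. Both lists had been cut by the irreproducible discovery rate (IDR), a measure of how well peak ranks match between a pair of lists, so the members were chosen by measured values. Signals, scores and distances to conservative peaks are therefore given as descriptions, with no test. The position of the summits along genes and their base sequence took no part in the choice and were tested.

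The study has 1 group of 2 biological replicates and no second condition. Whole embryos aged 0 to 24 h came from a strain labelled ttk-GFP, with an insertion that targets ttk, and the fusion protein is described as ttk-eGFP. The immunoprecipitation used an antibody against GFP, although the antibody label reads ttk, and the sonicated chromatin had sizes from 200 to 800 bp. No control library was analysed here and the depth of the libraries is unknown, because the files list peaks and no reads. Whole embryos mix all tissues, so binding in a few cells and weak binding in many cannot be told apart.

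Tramtrack is a zinc-finger protein with a BTB domain, which lets such proteins pair with each other. It is known as a repressor that holds back neuronal genes in non-neuronal cells and takes part in the development of the eye, glia and tracheae. Its gene makes a 69 kDa and an 88 kDa isoform with different zinc fingers, and these were reported to prefer different DNA sites. Both lists were cut at the same score limit of 830, but in different rankings. The account below describes where the peaks of the larger list alone lie and what their sequence holds.

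The sequences below reach 50 bp to either side of member summits, on the plus strand of dm6, read from the NCBI RefSeq assembly. The first 4 hold the site reported for the 88 kDa isoform, AGGGCGG or AGGGTGG on either strand. It stood in a larger share of members than of shared peaks. They were chosen after their values were seen, as those of highest signal with the site in the stretch and no untranslated sequence, on 3 of the arms. Df31 encodes a chromatin decondensation factor, Atpalpha the catalytic subunit of the sodium pump, and Spc25 a kinetochore protein. Next comes a member inside a coding exon, in CG2150, that also holds the site. The last 2, near CG8745 and app, are the members of highest signal, and neither stretch holds the site. Capitals mark the site.
Df31, chr2L:21629936-21630036: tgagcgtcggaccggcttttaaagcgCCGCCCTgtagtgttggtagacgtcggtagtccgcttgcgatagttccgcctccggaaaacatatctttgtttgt
Atpalpha, chr3R:20957049-20957149: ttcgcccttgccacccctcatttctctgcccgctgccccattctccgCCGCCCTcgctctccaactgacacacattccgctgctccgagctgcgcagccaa
Spc25, chr3R:12961644-12961744: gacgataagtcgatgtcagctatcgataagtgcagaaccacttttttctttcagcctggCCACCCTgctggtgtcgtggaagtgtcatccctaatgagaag
CG10359, chr3L:3580884-3580984: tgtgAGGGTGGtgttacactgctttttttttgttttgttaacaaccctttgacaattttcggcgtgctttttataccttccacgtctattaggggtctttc
CG2150, chr3R:31763995-31764095: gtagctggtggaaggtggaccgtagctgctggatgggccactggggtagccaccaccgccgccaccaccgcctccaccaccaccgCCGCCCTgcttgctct
CG8745, chr3L:13862545-13862645: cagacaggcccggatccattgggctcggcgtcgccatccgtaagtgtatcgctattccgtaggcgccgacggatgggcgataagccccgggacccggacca
app, chr3L:12266955-12267055: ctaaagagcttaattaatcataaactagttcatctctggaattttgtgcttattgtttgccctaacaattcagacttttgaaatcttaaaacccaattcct

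The members were mostly the weaker peaks of the larger list. Their signal, the authors' own value for a peak, had a median of 71.3 and ran from 2.24 to 404, against a median of 129.7 among shared peaks. Between the 10th and the 90th percentile the members' signals lay within 54.5 to 98.8. Ordered by rank in the larger list and divided into 5 parts of near equal size, the list held 15 members in the first part, 28 in the second, 109 in the third, 355 in the fourth and 658 in the fifth. The IDR score of a peak rises with its reproducibility up to 1000. It stood at 1000 in 519 members (44.5%) and in 93.6% of shared peaks. Almost all members, 1151 (98.8%), had the list's common width of 344 bp, against 72.0% of shared peaks.

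Just inside the score limit, 45 members scored 830 to 839, with a median signal of 60.8. Just outside it, 49 ranked peaks with no conservative overlap scored 820 to 829, with a median signal of 64.2. The lowest scores among members were 830 at sws, 831 at lig and 831 at trn. The 3 lowest signals were 2.24 at Rab5, 2.30 near tara and 2.53 at nemy. The values on either side of the score limit lay in the same range. On the side of the overlap rule, a member within kuk, a nuclear envelope gene, came closest to a conservative peak and had a signal of 159. Shared peaks at Mp and Dh31-R met the rule by the least overlap, with signals of 15.5 and 22.95.

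Most members had been ranked, but low, in the comparison behind the conservative list. Of the 1165, 985 stood in that ranking, with a median score of 534, and 180 were absent from it. Only 2 members reached its limit of 830, one within sick and nearest the start of CG10481, the other near PolE1, the catalytic subunit of DNA polymerase epsilon. The member within sick had signals of 40.5 in replicate 1 and 29.6 in replicate 2. At PolE1 the signals were 43.6 and 29.2. Of the conservative list in turn, 274 of 3815 peaks overlapped no peak of the larger list. The members thus make up 24.8% of the larger list, and the unmatched conservative peaks make up 7.18% of the conservative one.

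Members with a summit close by in both replicates lay at the low edge of at least 1 of them. For each member a match was sought in each replicate's own ranked list, namely the closest summit at most 150 bp away, and 868 members had such a match in both. Among shared peaks, the 5th percentile of the signal was 35.6 in replicate 1 and 32.5 in replicate 2. No member of the 868 reached both values, whereas 91.5% of the 3351 shared peaks matched in both did. A total of 489 members passed the value of replicate 1 alone, 255 passed that of replicate 2 alone, and 124 passed neither. These 868 members therefore form an L around the shared peaks when the replicates are plotted against each other, which the choice of members by rank largely fixes.

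**Figure D1:**
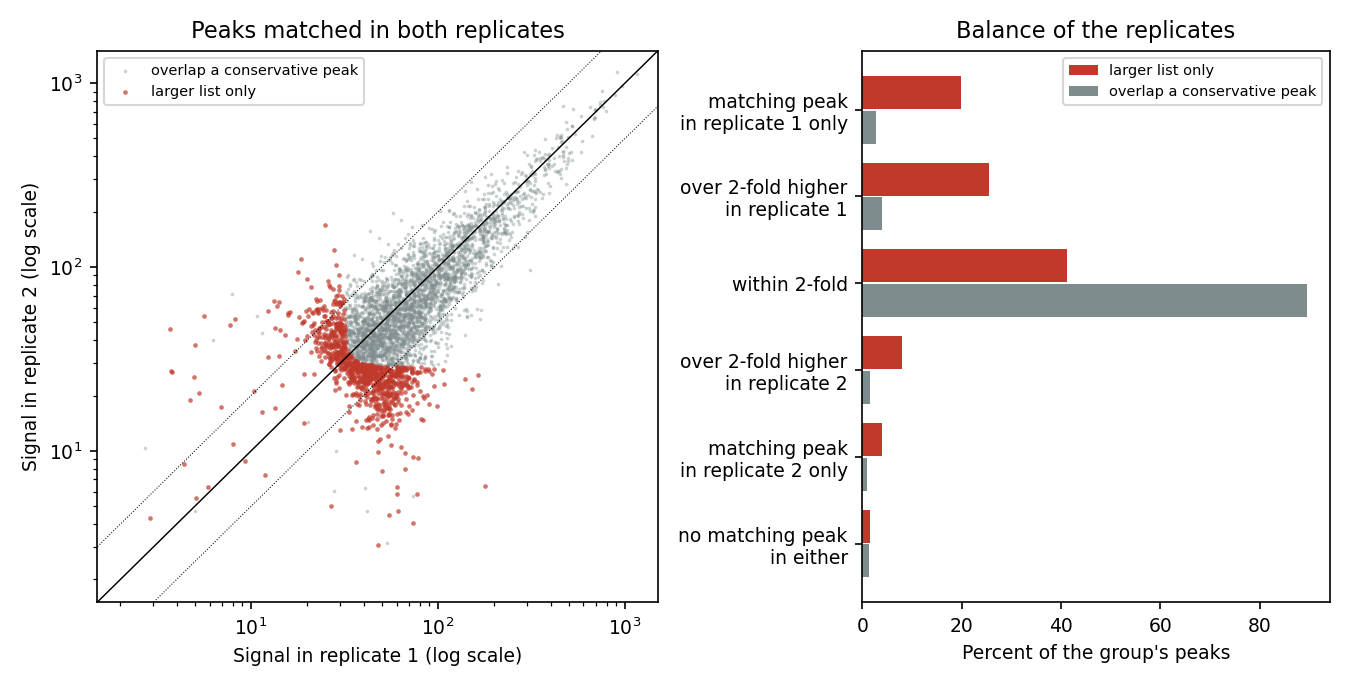
Left, the signal in replicate 2 against that in replicate 1, on log axes, for the 868 members (red) and 3351 shared peaks (grey) with a match in both replicates; the solid line marks equal signals and the dotted lines a 2-fold difference. Right, the percentage of members and of shared peaks in each class of balance between the replicates: 41.2% of members and 89.6% of shared peaks had signals within 2-fold.

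Replicate 1 carried more of the members than replicate 2. The median signal was 41.4 in replicate 1 (1100 members matched) and 27.3 in replicate 2 (915 matched). The median log2 ratio of replicate 1 to replicate 2 was 0.60 ± 1.12 (SD over 868 members) and 0.15 ± 0.52 over the 3351 shared peaks. Signals were within 2-fold in 480 members, over 2-fold higher in replicate 1 in 296 and over 2-fold higher in replicate 2 in 92. A further 232 members (19.9%) had a match in replicate 1 only, 47 (4.03%) in replicate 2 only and 18 (1.55%) in neither. The same shares of shared peaks were 2.75%, 0.85% and 1.36%. Shared peaks leaned towards replicate 1 as well. Of those matched in both, 62.2% were higher in replicate 1, beside 66.0% of members. A thresholded peak of replicate 1 overlapped 385 members and one of replicate 2 overlapped 190. Only 14 of the 1165 members had both, and 604 had neither. Among the 3526 shared peaks, 73.3% overlapped a thresholded peak of replicate 1 and 75.1% one of replicate 2. Of these shared peaks, 60.6% had both and 12.2% had neither.

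A missing match cannot be read as a signal of 0, because the files list peaks and no reads. In members matched in both replicates, the signals of the replicates added up to a median of 0.992 times the larger list's signal. In the 232 members matched in replicate 1 only, the signal of replicate 1 came to a median of 0.633 times the larger list's signal. For the 47 matched in replicate 2 only, the corresponding value was 0.719. Single members differed from these medians: near DIP1, a signal of 114 in replicate 2 stood beside 110 in the larger list. Whether the rest of the signal came from the unmatched replicate was not tested. A match can also fall on a weak neighbouring summit: near wech, a gene for a muscle attachment protein, the nearest summits had signals of 178 and 6.48, while the strongest replicate 2 summit within 150 bp had 58.2. Taking the strongest summit within 150 bp, an alternative chosen after seeing the data, left 493 members within 2-fold and the median log2 ratio at 0.60.

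The 5 members most unequal in each direction, by their nearest summits, are given here. Towards replicate 1 they were near wech, rib, gukh, CG5541 and htl. At the promoter of rib, a BTB transcription factor of tracheal and salivary gland morphogenesis, the signals were 73.1 and 4.05. At htl, a receptor for fibroblast growth factors, they were 61.4 and 4.70. Both kept these values with the strongest summit, whereas gukh went from 3.06 to 24.8 in replicate 2. Towards replicate 2 they were near hpo, ptc, CG3764, CG17111 and CG32638. At hpo, the kinase that names the Hippo pathway, the nearest summits gave 3.70 and 45.8, but the strongest summit of replicate 1 within 150 bp had 36.3. Likewise ptc, the receptor of Hedgehog, went from 5.58 to 52.3 in replicate 1, against 54.1 in replicate 2.

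The 25 members of highest signal, with overlapping ones counted once, had signals from 159.7 to 404. Of these, 18 had a match in replicate 1 only, 2 in replicate 2 only and none was within 2-fold, which the choice of members by rank largely fixes. All 14 members narrower than the common width were among them, whereas 27.9% of shared peaks were narrower. Absent from the ranking behind the conservative list were 20 of the 25. By annotation, 15 lay in introns, 8 at promoters and 2 between genes. The strongest, in an intron near CG8745, had a signal of 404, with 155 in replicate 1 and no match in replicate 2. The next, at -164 bp from the TSS of app, a palmitoyltransferase gene of the Fat pathway, had 300.3 with 145 in replicate 1.

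Further members of the 25 lay near the following genes. In an intron of InR, the insulin receptor gene, a member had a signal of 241, with 149 in replicate 1 and no match in replicate 2. At Diap1, which encodes an inhibitor of caspases, one intronic member had a signal of 239 with 113 in replicate 2 only. A second Diap1 member had 203, with 139 in replicate 1 and 24.7 in replicate 2. Near Myc, a growth regulator, the signal was 187 with 81.2 in replicate 1 only. An intronic member of rl, the gene of the ERK kinase, had 202, with 24.9 in replicate 1 and 170 in replicate 2. Position alone links these members to the genes.

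The remaining strong members also had either a match in 1 replicate only or signals over 2-fold apart. Where a match was absent, that replicate had no value, so the balance of those members is unknown. Matches in replicate 1 only were listed near CG32425 (283), ed (260.5), Tlk (255), Pde11 (231), lama (223), CG5096 (214), Tsp42Eg (199.7) and Dph1 (199), each value being the larger list's signal. The same held near vig2 (187), SCaMC (170.2), Tsp96F (168), jvl (164), yps (164) and Arp2 (159.7). Among them ed encodes a cell adhesion molecule, Tlk a kinase of chromatin assembly and Arp2 a subunit of the actin-nucleating complex. Near Nubp2, a gene of iron-sulphur cluster assembly, the signal was 283, with 164 in replicate 1 and 25.8 in replicate 2. In an intron of fru, the BTB gene of sexual behaviour, it was 209, with 96.2 in replicate 2 only. At Rtnl1, which shapes the endoplasmic reticulum, it was 163, with 27.9 in replicate 1 and 124 in replicate 2.

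Members were less often at promoters and more often inside coding exons than shared peaks. A summit within 500 bp of an annotated transcription start site (TSS) counted as a promoter summit. The rest were assigned in turn to 5' UTRs, to coding exons, to 3' UTRs, to remaining exons, to introns and otherwise to intergenic sequence. Of the 7 classes, 3 (42.9%) passed a two-sided Fisher's exact test at an adjusted p under 0.05. Peaks are not replicates, so these p-values describe positions in this pair of libraries, and the exact intervals cover counting error only. A total of 382 members were at promoters, 32.8% (95% Clopper-Pearson interval 30.1 to 35.6), against 43.9% of shared peaks (exact adjusted p = 6.91e-11). Both shares were above the 13.3% of all bases of the arms that this class covers.

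Coding exons held 45 members, or 3.86% (2.83 to 5.13), against 15 shared peaks, or 0.43% (exact adjusted p = 2.06e-15). Even so, coding exons make up 13.4% of all bases, so both groups lay there less often than their length. The share between genes was 20.5% of members and 15.2% of shared peaks (exact adjusted p = 7.74e-05). Introns held 40.4% and 38.1% (exact adjusted p = 0.290), a difference of 2.28 points that did not pass. When both groups were limited to the same range of signal, the coding exon difference was 3.17 points (exact adjusted p = 1.09e-04). The promoter difference was then -4.73 points (exact adjusted p = 0.132), and the intergenic one 3.37 points (exact adjusted p = 0.175), so neither passed. Among the 190 members over a thresholded peak of replicate 2 the promoter difference was -2.30 points (exact adjusted p = 0.833). Among the 385 over one of replicate 1 the intergenic difference was 2.49 points (exact adjusted p = 0.348). These replicate settings limited the members only and kept all 3526 shared peaks.

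**Figure D2:**
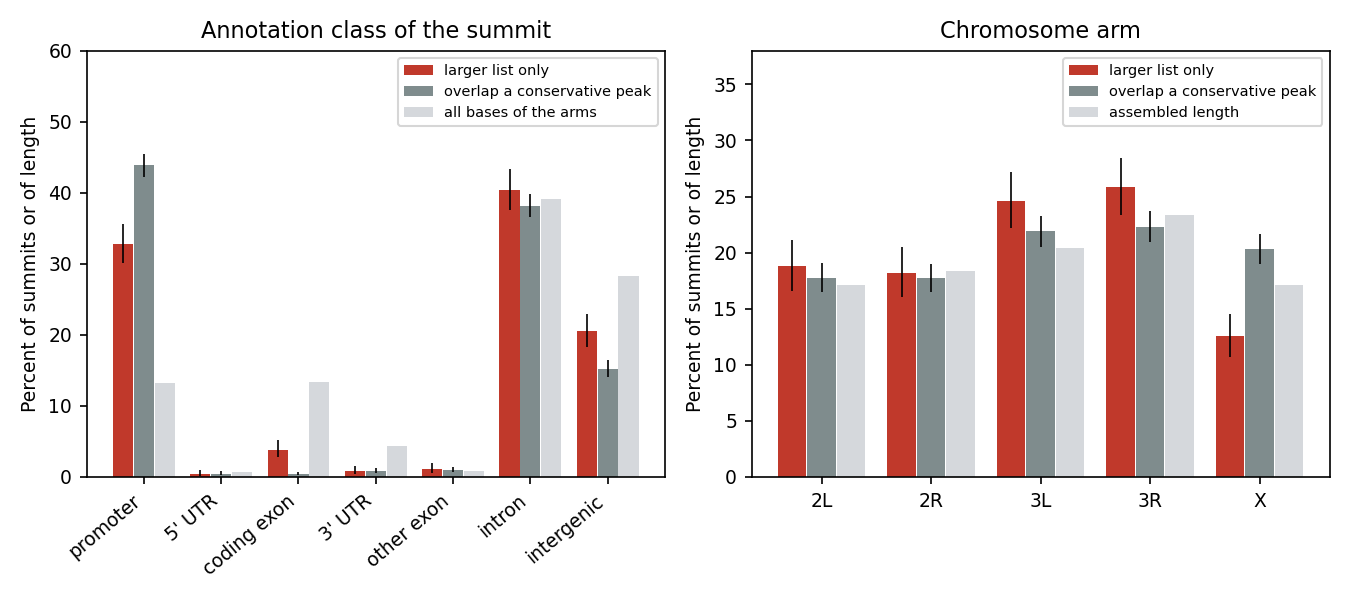
Percentage of member summits (red), shared summits (grey) and of all bases (light) in each annotation class (left) and on each of the 5 large chromosome arms (right); bars carry exact 95% intervals. Members exceed shared peaks in coding exons, 3.86% against 0.43%, and fall below them at promoters, 32.8% against 43.9%, and on X, 12.5% against 20.3%.

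The coding exon members were mostly even in the replicates. Of the 45, 32 had signals within 2-fold, 6.67% of all members with that balance. Their signals ran from 3.83 to 89.2, with a median of 66.3 and medians of 30.3 in replicate 1 and 27.8 in replicate 2. The GC content of their windows was 56.8% ± 7.34 (SD, 45 windows), beside 55.4% ± 8.09 in the 15 shared peaks in coding exons and 42.4% ± 9.87 over all members. In the limited range of GC content, a setting added after seeing the data, the coding exon difference was 0.87 points (exact adjusted p = 0.0118). The strongest, in a coding exon of CG1894 and nearest the start of the dynein gene Dhc98D, had a signal of 89.2, with 64.1 in replicate 2 only. The next, in Snx27, a sorting nexin gene, had 86.5, with 66.6 and 20.9 in replicates 1 and 2. A member in an exon of CG2150 had 78.5, with 28.3 and 47.8. Limited to the 583 members of highest signal, the difference in coding exons was 0.78 points (exact adjusted p = 0.0646).

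At promoters, a smaller share of members than of shared peaks lay upstream. Within 500 bp of protein-coding TSSs lay 339 members, of which 238 (70.2%) were upstream, against 82.6% of 1456 shared peaks. The median distance from the TSS was 145 bp in members and 128 bp in shared peaks. These values were set side by side without a test. Far from genes, 190 members (16.3%) and 11.7% of shared peaks lay over 10 kb from any protein-coding TSS. Annotated transposable elements held 7 member summits (0.60%) and cover 5.91% of the arms.

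**Figure D3:**
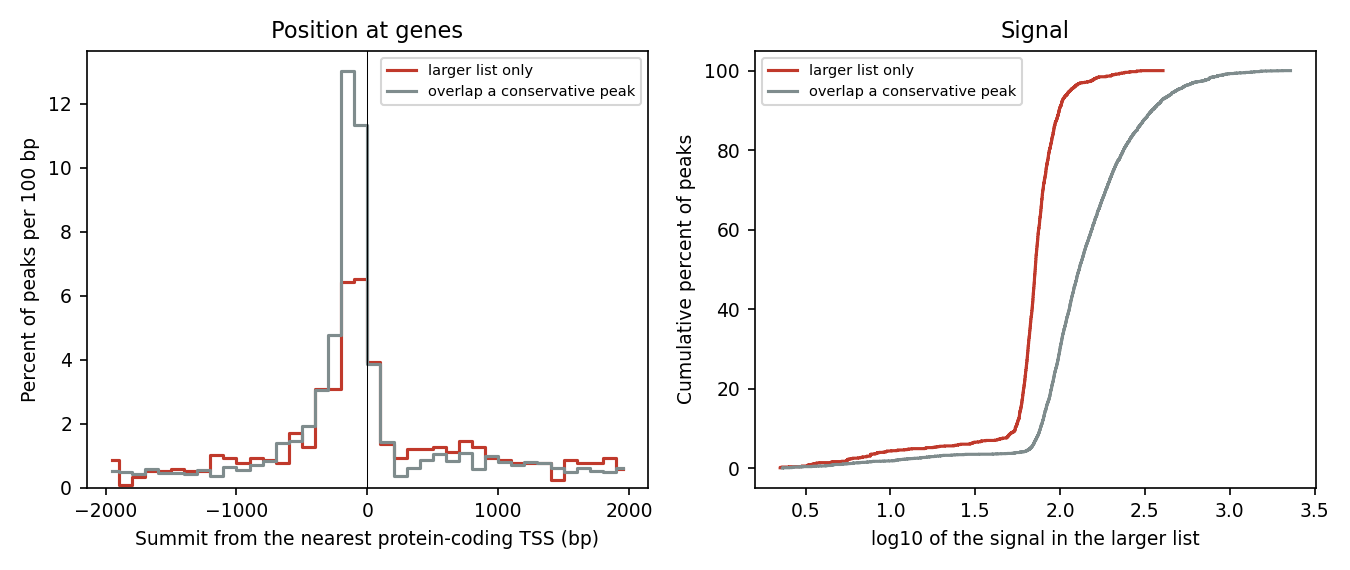
Left, the percentage of members (red) and shared peaks (grey) in bins of 100 bp by distance of the summit from the nearest protein-coding TSS, with negative values upstream. Right, the cumulative percentage of each group by log10 of the signal; the members' median signal was 71.3 and that of shared peaks 129.7.

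On the chromosome arms, members were scarce on X. Of the 5 arms tested, 2 (40%) passed Fisher's exact test at an adjusted p under 0.05. X held 146 members, or 12.5% (10.7 to 14.6), against 20.3% of shared peaks (exact adjusted p = 5.76e-09), and X makes up 17.1% of the assembled length. The difference, members minus shared, was -8.09 points within the same range of signal (exact adjusted p = 2.15e-05). Arm 3R held 25.8% of members and 22.3% of shared peaks (exact adjusted p = 0.0363). With only the 190 members that overlap a thresholded peak of replicate 2, the X difference was -1.89 points (exact adjusted p = 0.696), and 3R did not pass (exact adjusted p = 0.696). With an overlap of at least 0.5 of the peak in the rule, 3R did not pass either (exact adjusted p = 0.118).

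The 88 kDa site was about as rare at shared peaks as in the genome and more frequent at members. Windows reached 100 bp to each side of the summit, 201 bp in all, and 15 motifs were searched on both strands. A match is a description of letters, not a binding site. In the comparison with shared peaks 8 motifs (53.3%) passed at an adjusted p under 0.05. AGGGCGG or AGGGTGG was found in 68 member windows, 5.84% (4.56 to 7.34), and in 2.92% of shared windows (Fisher's exact test, adjusted p = 6.12e-05). It stood in 2.60% of 681615 windows of the same length that tile the arms.

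Within members the site also stood closer to the summit than beside it. In the windows centred 500 bp lower in coordinates, 20 members (1.72%) held it, against the 68 at the summit (exact McNemar test, adjusted p = 4.16e-06). By bins of 50 bp, the highest share was 1.72% of members (20), in the bin centred 75 bp below the summit. It was 0.34% at 475 bp above the summit, but the fall was not smooth. The bin at 275 bp below held 1.37% (16 members), beside 1.29% and 1.12% at 25 and 75 bp above. The share was 7.59% at member promoters (29 of 382), 4.46% in introns and 3.35% between genes. Against shared peaks at promoters alone, an alternative added after seeing the data, the difference was 4.42 points (exact adjusted p = 0.00120).

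The difference from shared peaks moved with base composition and with the replicate. GC content was 42.4% ± 9.87 (SD) in the 1165 member windows, 36.6% ± 7.97 in shared windows and 42.1% in genome windows, and the site itself is rich in G. With both groups limited to the middle range of the members' GC content, a setting added after seeing the data, the difference was 0.97 points (exact adjusted p = 0.474). Among the 190 members over a thresholded peak of replicate 2, it was -0.29 points (exact adjusted p = 1), and at the summit against beside it 0.53 points (exact adjusted p = 1). Among the 385 over a peak of replicate 1, it was 5.13 points (exact adjusted p = 6.07e-05). Both replicate settings limited the members only and kept all 3526 shared peaks. GC content beside member peaks was 41.2%, beside 42.4% at their summits. In shared peaks it was 43.6% beside the peaks and 36.6% at the summits. Whether GC content bears on the site's share at member summits against beside them was not tested.

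The strongest members with the 88 kDa site were chosen after their values were seen. The first was the intergenic member near wech described above, with a signal of 224, 178 in replicate 1 and 6.48 at the nearest summit of replicate 2. At fkh, the forkhead factor of the salivary gland, a member at -240 bp from the TSS had a signal of 146, with 107 in replicate 1 and 27.4 in replicate 2. At mal the signals were 116, 95.4 and 27.9, and at CG2961 they were 114, 78.5 and 26.8, in the same order. The Df31 member printed above had 109, with 58.4 in replicate 1 and no match in replicate 2. The Spc25 member printed above, at -51 bp from the TSS, had 95.8 and was higher in replicate 2, at 74.98 against 29.7. An intergenic member near en, the segment polarity gene, had 92.3, with 69.7 and 22.2. A further member with the site, near CG6959, was also higher in replicate 2 (20.9 in replicate 1 and 77.5 in replicate 2).

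**Figure D4:**
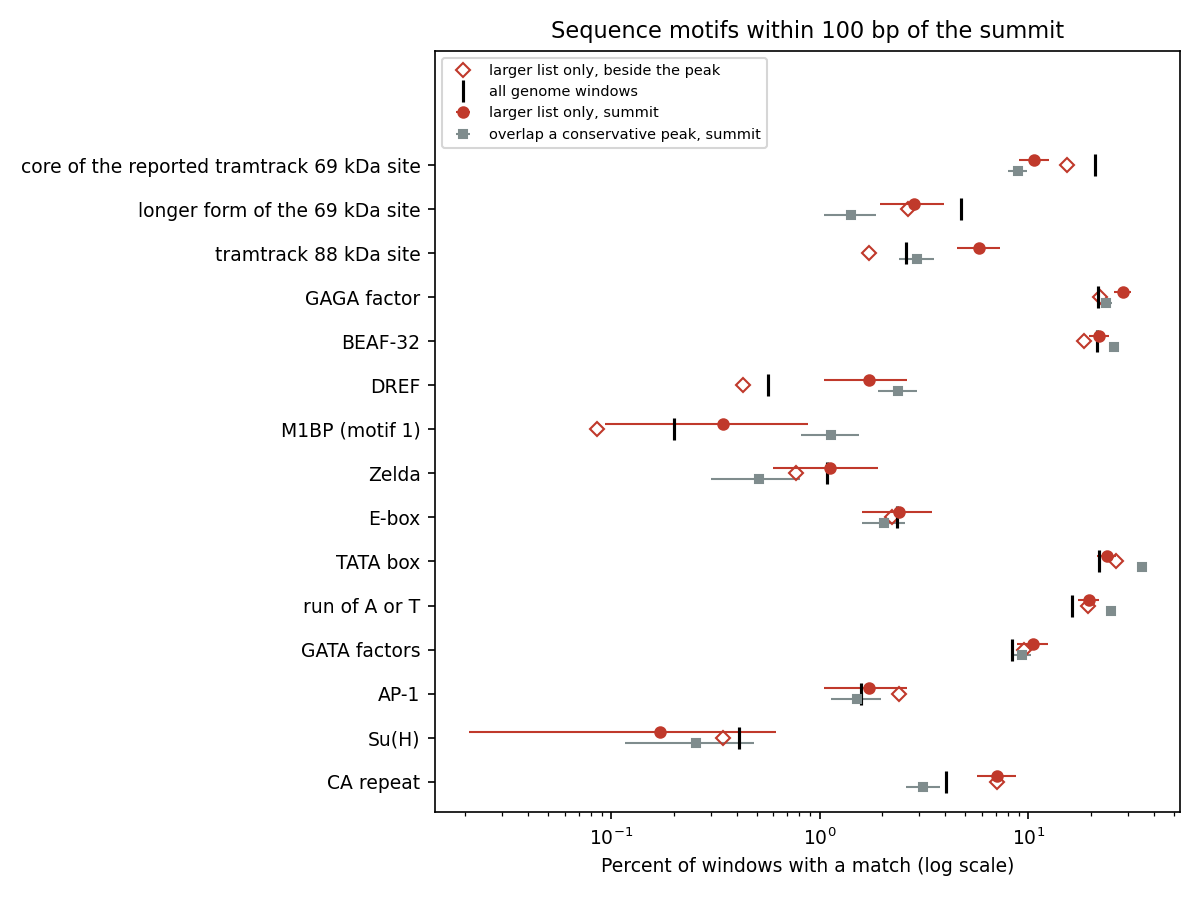
Percentage of windows with each of the 15 motifs (log axis) at member summits (red circles), at shared summits (grey squares), beside the members (open diamonds) and over all genome windows (black bars); horizontal lines are exact 95% intervals. The 88 kDa site stood in 5.84% of member summits and 1.72% of windows beside them.

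The core reported for the 69 kDa isoform showed another pattern. AGGAC was found at 10.7% of member summits and 8.93% of shared ones (exact adjusted p = 0.109), against 21.0% of genome windows. Beside the members it was more frequent, at 15.5%, than at their summits (exact McNemar test, adjusted p = 0.00458). In windows of 50 bp to each side this last difference did not pass (exact adjusted p = 0.587). The longer form GGTCCT stood in 2.83% of members and 1.42% of shared peaks (exact adjusted p = 0.00719), both below the 4.79% of genome windows. Of the windows beside members 2.66% held it. The difference from shared peaks did not pass in the limited range of signal (exact adjusted p = 0.110), in the limited range of GC content (0.118), at promoters alone (0.462), with the 583 strongest members (0.189) or with those of either replicate (0.109 and 0.241). Only 7 members held both the 88 kDa site and AGGAC.

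Several core promoter and insulator motifs were less frequent in members than in shared peaks. TATAAA, the TATA box, stood in 23.9% of members and 35.1% of shared peaks (exact adjusted p = 1.12e-11), with 21.8% in genome windows. The difference was -6.20 points in the limited range of GC content (exact adjusted p = 0.0189). Runs of 7 A or T bases stood in 19.6% and 24.96% (exact adjusted p = 5.84e-04). CGATA, the core bound by the insulator protein BEAF-32, stood in 22.0% and 25.8% (exact adjusted p = 0.0188). GGTCACACT, the promoter motif of M1BP, was found in 4 members, 0.34%, and in 1.13% of shared peaks (exact adjusted p = 0.0248). Genome windows held the runs, CGATA and GGTCACACT in 16.3%, 21.5% and 0.20%, no more often than members did. In the limited range of signal, the last 3 did not pass in the exact test, with adjusted p-values of 0.780, 0.581 and 0.477. In the limited range of GC content they were 0.977, 0.0803 and 0.0803.

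Repeat-like motifs were compared next. GAGAG, the core bound by GAGA factor, stood in 28.4% of members and 23.7% of shared peaks (exact adjusted p = 0.00464), with 22.2% beside the members (exact McNemar test, adjusted p = 0.00425). In the bins next to the summit, 8.33% and 8.50% of members held it, against 4.85% and 4.88% of shared peaks. Further out shared peaks held it more often in most bins, with 10.4% against 7.64% at 175 bp below the summit and 11.2% against 8.58% at 125 bp above it. CACACACA stood in 7.12% and 3.15% (exact adjusted p = 1.67e-07), but the windows beside the members held it as often, at 7.12%. In the limited range of signal the GAGAG difference from shared peaks was 3.56 points (exact adjusted p = 0.217), and in that of GC content 2.34 points (0.474). Against the flank on the other side the GAGAG difference did not pass (exact adjusted p = 0.0537), nor did it in windows of 50 bp (0.0958). TATCGATA, the site of the replication-related factor DREF, stood in 1.72% of member summits and 0.43% beside them (exact adjusted p = 0.0153). With the flank on the other side this difference was 0.94 points (exact adjusted p = 0.196), and in windows of 50 bp 0.60 points (0.444). Of the 15 motifs, 4 (26.7%) passed in this comparison of summits with the windows beside them.

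**Figure D5:**
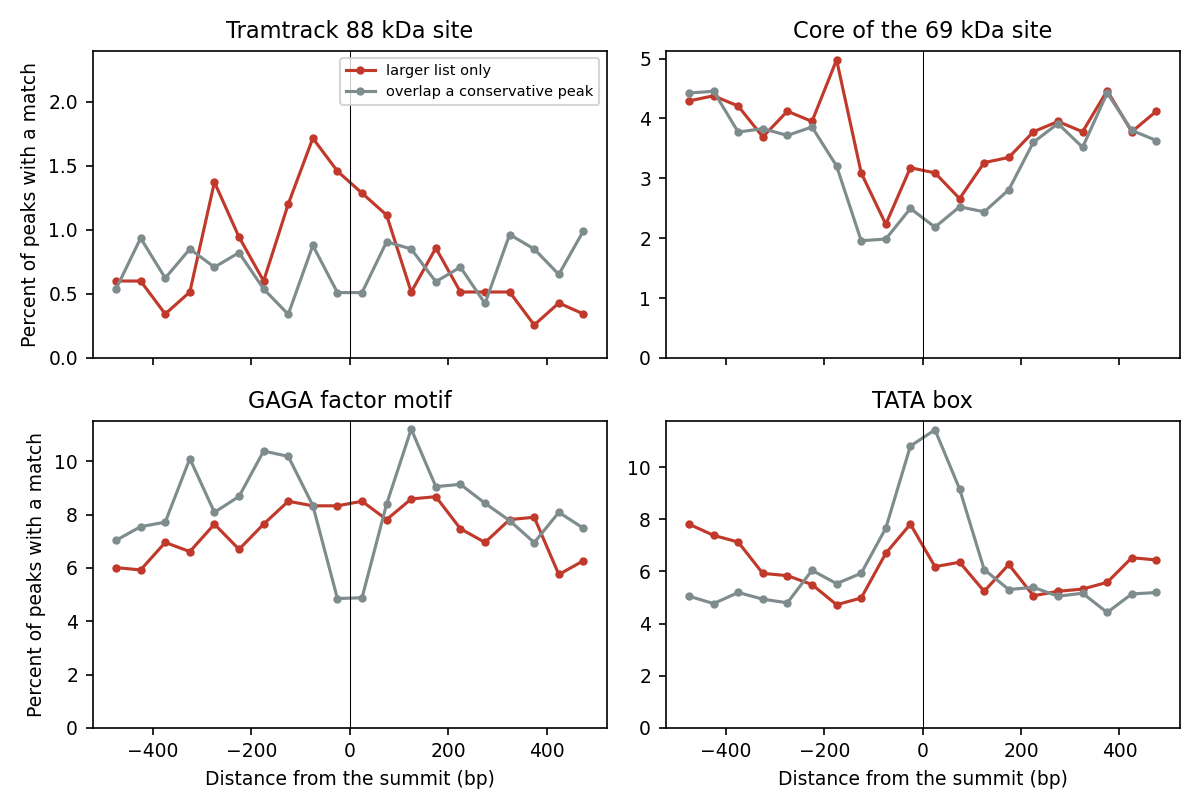
Percentage of members (red) and shared peaks (grey) with a match in each bin of 50 bp, by distance of the bin's centre from the summit, for the 88 kDa site, the core of the 69 kDa site, the GAGA factor motif and the TATA box. Matches to the 88 kDa site reach 1.72% of members near the summit, 1.37% at 275 bp below it and 0.34% at 475 bp above it. The TATA box reaches 11.4% of shared peaks near the summit. In members it stands at 7.81% both near the summit and at 475 bp below it.

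The motifs were unevenly spread over the classes of replicate balance, which is given as a description. The 88 kDa site was found in 8.78% of the members over 2-fold higher in replicate 1, in 5.60% of those matched in replicate 1 only, in 4.79% of those within 2-fold and in 4.35% of those over 2-fold higher in replicate 2. TATCGATA was found in 9.78% of members over 2-fold higher in replicate 2 and in 0.68% of those over 2-fold higher in replicate 1. The AP-1 site TGACTCA or TGAGTCA stood in 4.05% of the latter, 1.09% of the former and 1.29% of those matched in replicate 1 only. The groups hold 296 and 92 members. Among the 190 members over a thresholded peak of replicate 2, TATCGATA was 3.93 points above shared peaks (exact adjusted p = 0.0240), the reverse of its main direction of -0.67 points.

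At promoters, the members were counted per gene. Of 13968 protein-coding genes, 398 (2.85%) had a member summit within 500 bp of a TSS, and 360 of these (90.5%) had no conservative summit in that window. Over all protein-coding genes 14.2% had a conservative summit there, and the overlap rule keeps members off conservative peaks, so nothing is read from that share. Of 4309 other annotated genes, 78 (1.81%) had a member summit at a TSS. The same share over a list of genes is read against these values and was not tested. A summit between head-to-head genes counts for both.

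Genes of regulators of the BTB family had member summits in 4 of 15 cases (26.7%), and 6 of the 15 had a conservative one. At psq, which encodes a BTB protein that binds GAGA repeats, the signal at -71 bp from the TSS was 90.8, with 50.1 in replicate 1 and 28.3 in replicate 2. At Trl, the gene of GAGA factor, it was 88.2, with 59.1 and 20.6. The rib promoter had 88.2 and ttk itself 62.4. Both Trl and ttk also had a conservative summit at a promoter.

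The ttk locus held 5 members, all by nearest TSS. Their signals were 98.9, 82.8, 62.4, 49.6 and 6.82. The first 3 had signals of 88.05, 74.5 and 70.6 in replicate 1 and no match in replicate 2, and the fourth had 14.2 in replicate 1 and 32.8 in replicate 2. The first nonetheless overlapped a thresholded peak of each replicate, and the fifth had 10.6 in replicate 2 only. The first and the fifth overlapped each other. All 5 scored 1000 in the larger list, and between 41 and 51 in the ranking behind the conservative list. The insertion targets ttk, and no control library was analysed here, so copy number at this locus was not tested. Of the 4 other genes named for their strong peaks in earlier results, tara had 2 members nearby, which overlapped each other, with signals of 50.7 and 2.30. The genes cbt, Lk6 and Kdm2 had none.

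The lists given next each held 1 to 3 genes with a member at a promoter, shares that were not tested. In the Notch pathway 2 of 21 genes (9.52%) had one: gro, the gene of the Groucho corepressor, had 107, with 60.1 and 28.5 in replicates 1 and 2. The other, E(spl)mbeta-HLH, a target repressor of the pathway, had 66.2, with 37.1 and 25.7. In the EGF receptor and Ras pathway 2 of 19 (10.5%) had one, at rho (73.9), whose protease releases the ligand, and at spi (58.1), the ligand. Of 18 Polycomb and corepressor genes only gro had one (5.56%), and of 13 ecdysone response genes only crol (7.69%), at 69.9. Among 23 tracheal and epithelial genes 3 (13.0%) had one, namely pyd (91.5), rib (88.2) and shg (83.5), the gene of E-cadherin.

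Cell cycle genes had 5 of 27 (18.5%), and 7 of the 27 had a conservative promoter summit. None of the 5 had one, but 90.5% of all protein-coding genes with a member there also had none, so nothing is read from it. Cdk1, the mitotic kinase, shared its peak with mRpS7, with a signal of 134, with 75.02 in replicate 1 and no match in replicate 2. The Cdk inhibitor gene dap had 81.7, with 55.0 and 24.2. CycB3, aurB and Cdk2 had signals of 73.8, 71.6 and 59.6. Cytoplasmic ribosomal protein genes had members in 5 of 82 cases (6.10%), whereas 50 of the 82 had a conservative summit. The strongest, RpL10Ab, had 104, with 28.4 in replicate 1 and 69.7 in replicate 2. It was followed by RpL26 (96.6), RpL35 (88.6) and RpL12 (72.1). Mitochondrial ribosomal protein genes had 4 of 73, led by mRpS7 and followed by mRpL42 at 69.3, mRpS22 at 54.5 and mRpL21 at 54.4.

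Several lists had no member at a promoter. The lists of 18 neuronal, 16 neural precursor and glial, 19 segmentation, 8 Hox, 20 stress response, 97 cuticle and 119 chemoreceptor genes each held 0, to be read beside the 2.85% of all protein-coding genes. Among small RNA genes, members lay at 2 of 290 tRNA, 6 of 269 snoRNA and 6 of 260 miRNA genes. The strongest were at snoRNA:Or-CD4 (124), mir-2496 (99.4) and tRNA:Leu-TAA-2-1 (80.0).

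Some loci gathered several members, though at each of those named here a pair of the members overlapped each other. With overlapping ones counted once, 1085 of the 1165 members remained. The gene jing, which encodes a zinc-finger factor of tracheal and glial development, was nearest to 7, with signals from 19.5 to 93.4, and to 3 conservative peaks. Of these 7, a promoter member at -163 bp from the TSS had 88.9, with 61.0 in replicate 1 and 27.7 in replicate 2. Myc was nearest to 5 members, with signals from 7.64 to 187. DIP1 on X was also nearest to 5 members and to no conservative peak. Its 4 matched members had signals of 114, 88.5, 47.0 and 40.2 in replicate 2 and none in replicate 1, and they lay over 80 kb from the start of DIP1. Over all members, 192 (16.5%) lay within 1000 bp of another member, overlapping ones included, and 112 (9.61%) within 1000 bp of a conservative summit.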

How the data were processed

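ChIP-seq peak lists of 2 biological replicates in 1 group were used, in dm6 coordinates per the labels. The sources used here name no aligner or peak caller. The deposited lists give each peak the authors' signal value, with no stated normalization. The authors gave each peak an IDR score, at most 1000, which rises as the IDR falls, and thresholded lists hold scores of at least 830. Peaks of a further file named beside the thresholded lists were not used here.

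Members were found by overlap of 1 bp on the arms, counting peaks of the larger list that overlap no conservative peak. Genes came from Ensembl release 115 and bases from the NCBI assembly of the same build. Fisher's exact tests compared members with shared peaks, and exact McNemar tests compared summit windows with windows 500 bp lower. All were two-sided, adjusted by Benjamini-Hochberg within 7 classes, 5 arms or 15 motifs. Each was tried on simulated data first.

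The members, lists and tests were chosen with earlier results of these data known. Genes were named by nearest TSS for the 25 strongest members, up to 4 per list, ttk, cbt, Lk6, tara and Kdm2, the edges of the rule and the most unequal members. Of the listed symbols, 2 could not be matched. Alternatives changed the overlap, signal range, windows, flank, GC range and replicates. Python 3.11.15, scipy 1.17.1, pandas 2.3.3, numpy 2.4.6 and matplotlib 3.10.9 were used. Depth is unknown, so no precision beyond counting error was given.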

Additional observations from a re-analysis of the deposited data

Results flagged for a closer look

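Peaks outside the chromosome arms, on unplaced scaffolds of the assembly, were not used in any comparison. The larger list held 54 of them, and 43 overlapped no conservative peak. On such scaffolds replicate 1 had 2 thresholded peaks and replicate 2 had 99, of 3203 and 3075 in all. Whether these peaks resemble those on the arms was not tested.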

How the results depend on the processing

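The number of members was 583 when only the strongest were kept and 190 to 385 with only those over a thresholded peak of 1 replicate. The latter settings are called single replicates below. With them and with the strongest members, all 3526 shared peaks were kept. The count of annotation classes past the threshold was 1 in the limited range of signal. The count of arms was 1 with an overlap of at least 0.5 of the peak and 0 to 1 with single replicates. Counts of motifs against shared peaks were 3 in the limited range of signal, 4 with the strongest members, 2 in the limited range of GC content and 5 at promoters alone, the last 2 of these settings being chosen after seeing the data. With single replicates the count was 2 to 9. Against the windows beside members, the counts were 2 with the flank on the other side, 1 in windows of 50 bp and 0 at the lowest with single replicates. Genes with a member at a promoter numbered 105 to 142 with single replicates. Of 315 values of single classes, arms and motifs under the alternatives, 47 changed sign; 42 of these were past the threshold neither in the main comparison nor under the alternative. The other 5 were differences from shared peaks with only the 190 members over a replicate 2 peak, and are given with the value for the 385 over a replicate 1 peak: AGGGCGG or AGGGTGG (-0.29 and 5.13 points), CGATA (4.19 and -6.85), TATCGATA (3.93 and -1.60), GGTCACACT (0.97 and -1.13) and CACACACA (-1.57 and 4.90). Among comparisons printed in the report that passed in neither, introns stood at -0.78 points in the limited range of signal and from -7.09 to 5.23 with single replicates. AGGAC stood at -1.86 in the limited range of signal, -0.87 with the strongest members and from -0.36 to 2.65 with single replicates. GGTCCT at the summit against beside it stood at -0.17 with the flank on the other side and from -0.53 to -0.52 with single replicates. The settings also leave fewer peaks, and the cause of these shifts was not tested. Of single features, 52 of 70 class values, 26 of 35 arm values, 106 of 150 motif values and 35 of 60 summit values kept direction and side of the threshold. The unknown depth limits what the absence of a listed peak in a replicate can show.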
